A study of Mus musculus with 23 samples.

Results

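The genes described are 10 immediate early response genes, taken by their symbols from the 56748 genes counted in melanoma tumors. They are Fos, Fosb, Jun and Junb, Egr1, Atf3, Nr4a1, Ier2, Ier3, and Dusp1. They were chosen with earlier results of these data known, and their symbols were the rule of membership. The tumors were grown in DBA/2J mice aged 6 to 8 weeks from B16-F1, an established mouse melanoma cell line placed under the skin of the flank, and 23 of them were sequenced. Mice treated by the intraperitoneal (IP) route received saline (CONTROL_IP, n = 2), pentoxifylline at 60 mg/kg (PTX_IP, n = 2), norcantharidin at 3 mg/kg (NCTD_IP, n = 2), or both drugs at these doses (MIX_IP, n = 2). Mice injected into the tumor (IT) received DMSO (CONTROL_IT, n = 4) or the same doses of PTX (PTX_IT, n = 3), NCTD (NCTD_IT, n = 4) or both (MIX_IT, n = 4). PTX is a methylxanthine that inhibits phosphodiesterases, and NCTD is a demethylated form of cantharidin, an inhibitor of protein phosphatases. Route, vehicle and the batch given in the labels are the same split of the tumors and cannot be told apart.

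Immediate early genes are transcribed within minutes of a signal to the cell, without new protein synthesis, and their messages are short-lived. Growth factors act on them through the ERK kinase cascade and the serum response factor, stress through the JNK and p38 kinases, and cyclic AMP through CREB. Fos, Fosb, Jun and Junb encode subunits that pair into AP-1, a transcription factor. Egr1 encodes a zinc finger transcription factor, Atf3 a stress-induced factor of the same leucine zipper class as AP-1, and Nr4a1 an orphan nuclear receptor. Dusp1 encodes a phosphatase that switches MAP kinases off, a brake on the same pathway. Ier2 encodes a nuclear protein linked to transcription, and Ier3 a protein linked to cell survival. In tumor tissue these genes are used by the cancer cells and by stromal and immune cells alike. In RNA from whole tumors, fewer cells of a type and less RNA per cell cannot be told apart.

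The promoters are shown because several of these genes carry the same short sequence upstream of their start, the core of the site that CREB and ATF proteins bind. RefSeq promoter sequences (a table of build GRCm38.p6) matched 8 of the 10 genes. Egr1 and Ier2 had no entry. The 4 printed below are the 150 bases upstream of the start for the AP-1 subunit Fos, for Junb and Dusp1, which are described in detail below, and for the nuclear receptor Nr4a1, each found once in GRCm39. Capitals mark TGACG or its reverse complement CGTCA, and in Dusp1 the full palindrome TGACGTCA, which contains both. Fos lies on the plus strand at chr12:85520514-85520663, Junb on the minus strand at chr8:85705378-85705527, Dusp1 on the minus strand at chr17:26727447-26727596 and Nr4a1 on the plus strand at chr15:101164577-101164726. The starts that RefSeq gives for Nr4a1 and Dusp1 lie inside the genes as the count table's annotation draws them.
Fos: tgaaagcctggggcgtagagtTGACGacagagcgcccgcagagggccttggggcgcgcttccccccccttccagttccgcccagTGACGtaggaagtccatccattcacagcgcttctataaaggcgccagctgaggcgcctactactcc
Junb: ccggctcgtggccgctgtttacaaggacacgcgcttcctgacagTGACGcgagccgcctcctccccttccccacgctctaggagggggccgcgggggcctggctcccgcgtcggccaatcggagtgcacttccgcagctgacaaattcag
Dusp1: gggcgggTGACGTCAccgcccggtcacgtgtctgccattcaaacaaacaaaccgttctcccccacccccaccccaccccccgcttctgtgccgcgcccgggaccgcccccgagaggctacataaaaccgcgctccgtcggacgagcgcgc
Nr4a1: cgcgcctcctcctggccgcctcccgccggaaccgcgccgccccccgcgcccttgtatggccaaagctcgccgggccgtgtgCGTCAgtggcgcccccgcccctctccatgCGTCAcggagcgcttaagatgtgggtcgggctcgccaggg

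Within 250 bases upstream of the start, TGACG on either strand was present in 6 of the 8 promoters (Fos, Fosb, Junb, Atf3, Nr4a1 and Dusp1), and in 17.8% of 32851 promoters of the same length. It began 129 and 66 bases before the start of Fos and 106 bases before that of Junb. Nr4a1 held it 4 times, with first bases at 233, 213, 69 and 40. The palindrome was found in 1 of the 8, Dusp1, at 143 bases, against 1.55% of all promoters. The EGR motif GCGNGGGCG was found in 2 of the 8 (Fosb and Nr4a1), against 4.7%. The AP-1 motif TGANTCA was in 0 of the 8 promoters, against 6.75% of all, and the CArG box of the serum response factor in 0 of the 8, against 1.47%. These motifs were searched on both strands, and apart from TGACG and the palindrome they were counted separately. A match describes the letters in this window and is not a measured site.

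The deposited counts amounted to between 2861578 and 6702374 reads per tumor, and a floor of 3 counts corresponded to 0.449 to 1.04 CPM (counts scaled to the size of the library) across the tumors, a limit that covers counting error only. The 7 melanocyte markers summed to 15319 to 37163 CPM, so that the labelled tissue carried its defining genes, while the 3 B cell markers stayed between 0 and 0.645 CPM. The study describes its groups as matched for sex, but sex-linked RNA differed between them. Xist, the RNA of the inactive X chromosome, lay between 5.19 and 13.6 CPM in NCTD_IT and between 1.28 and 11.6 in PTX_IT. It was at 0 in MIX_IT and between 0 and 0.566 in CONTROL_IT. Ddx3y, on the Y chromosome, was the reverse, at no more than 0.294 CPM in NCTD_IT and 0.279 in PTX_IT, 1.03 to 8.98 in CONTROL_IT and 6.83 to 15.5 in MIX_IT. Among the IP tumors Xist was at 0 except in 1 CONTROL_IP tumor with 8.26 CPM. Within the IT groups, NCTD_IT and PTX_IT therefore differ from CONTROL_IT in sex-linked RNA as well as in drug, whereas MIX_IT shares the pattern of CONTROL_IT.

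The 10 genes are protein-coding and were located in GRCm39 by the annotation of the count table, with Ier2 on the minus strand of chromosome 8 (85387960 to 85389483), Junb on the same strand of chromosome 8 (85701113 to 85705347), Fos on the plus strand of chromosome 12 (85520664 to 85524047) and Dusp1 on the minus strand of chromosome 17 (26724564 to 26781102). All 10 genes passed the filter on low counts in each model. Fosb was the scarcest, with 0 to 40 counts per tumor, 0 in 3 tumors and fewer than 3 counts in 6. Each of the other 9 was counted in every tumor, with at least 13 counts. Among these 9 Nr4a1 varied least over the 23 tumors, from 73.5 to 137 CPM, a 1.86-fold range, and Ier3 most, from 12.1 to 144 CPM, an 11.9-fold range. Egr1 spanned 3.35 to 35.8 CPM, Dusp1 18.9 to 180, Atf3 4.07 to 34.6, Junb 23.4 to 170, Fos 12.0 to 72.0, Ier2 30.7 to 135 and Jun 18.6 to 68.6. CPM values are compared between tumors for a gene and not between genes.

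**Figure D1:**
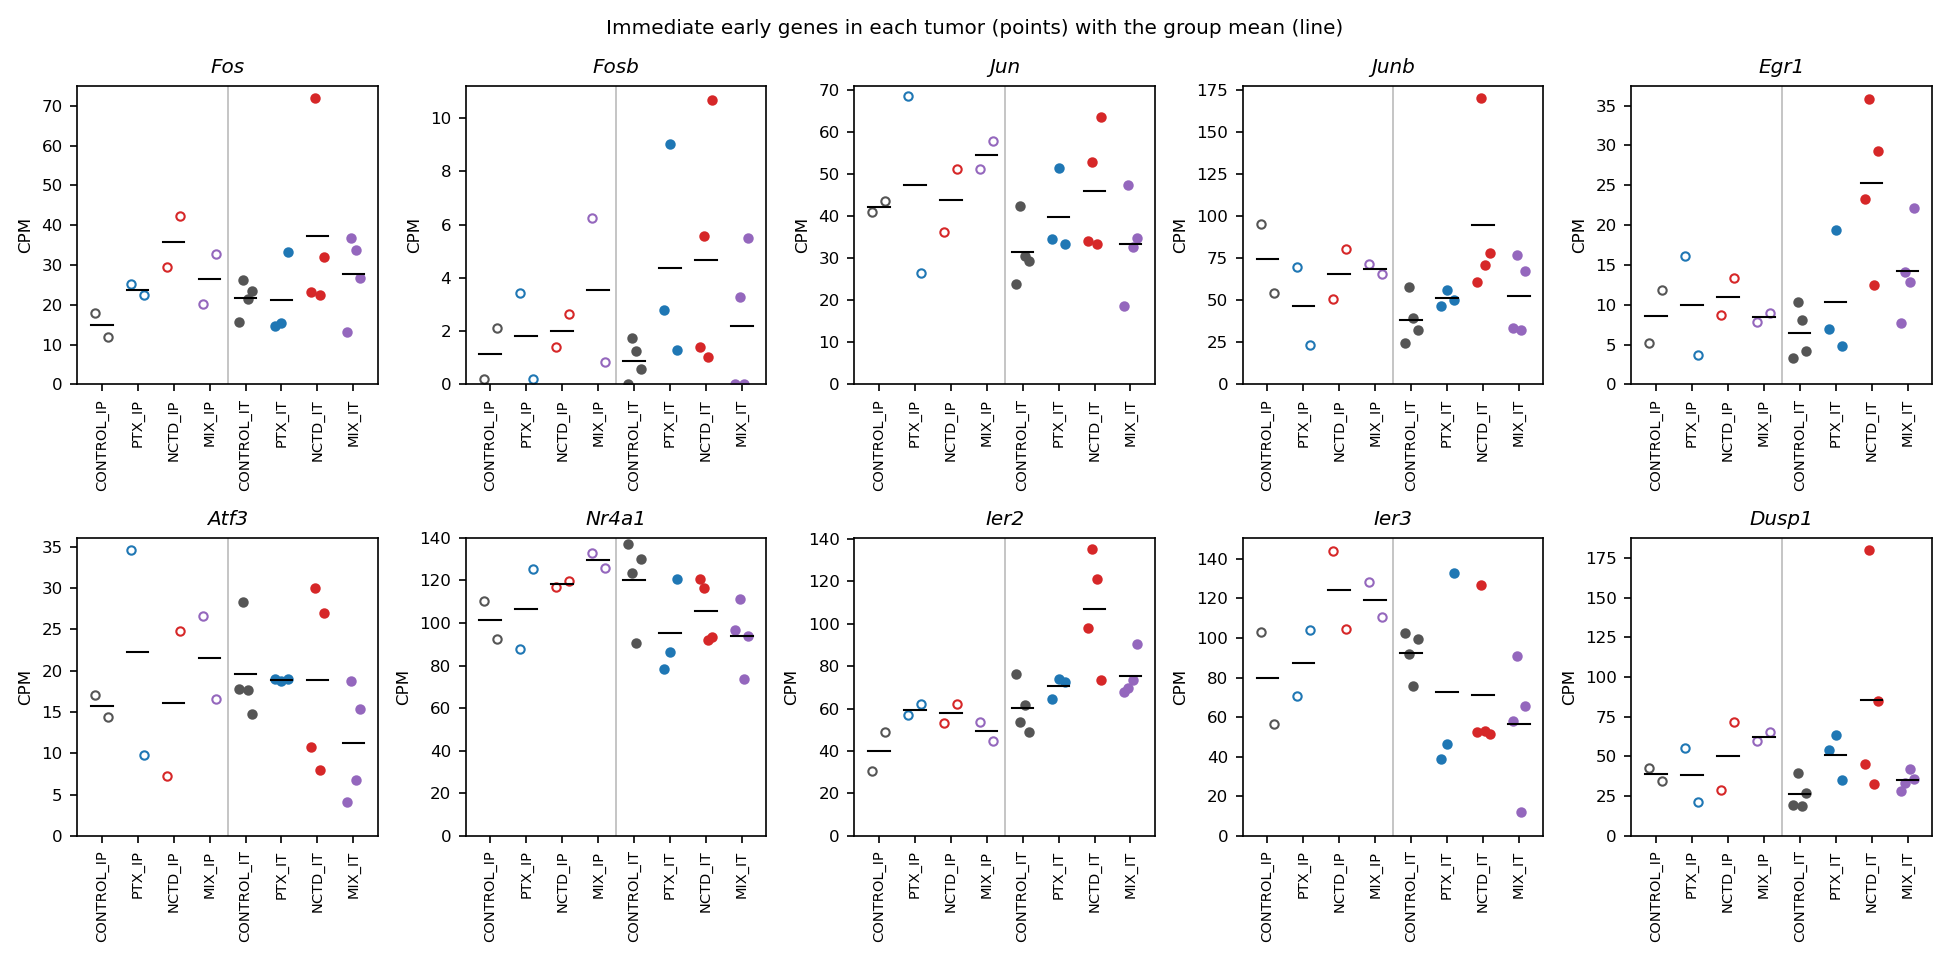
Level of each of the 10 genes (y axis, CPM) in the 23 tumors, grouped on the x axis by treatment, with IP tumors as open and IT tumors as filled points and a line at each group mean. The 4 NCTD_IT tumors sit at 12.4 to 35.8 CPM for Egr1 and at 60.7 to 170 CPM for Junb, above every CONTROL_IT tumor, and 1 NCTD_IT tumor is the highest of its group for Junb, Dusp1 and Fos.

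In tumors injected with NCTD, Ier2 rose against CONTROL_IT, and Egr1, Dusp1 and Junb were estimated higher by more than Ier2 but with adjusted p-values just above the threshold. Of the 10 genes, 7 were estimated higher than in CONTROL_IT. The median log2 fold change of the 10 was 0.80, where that of all genes tested was 0.03. In edgeR's quasi-likelihood test with Benjamini-Hochberg adjustment over all genes, 1 of the 10 (Ier2) had an adjusted p below 0.05, against 1.37% of the 12480 genes tested, or 0.921% when counted as higher alone. At an unadjusted p below 0.05 there were 4 of 10, all higher, against 21.6% of all genes, or 11.6% as higher alone. DESeq2 on the pair of groups called the same 4 genes, Ier2, Egr1, Dusp1 and Junb, at an adjusted p below 0.05, against 10.6% of genes. Every NCTD_IT tumor lay above every CONTROL_IT tumor for 2 of the 10, Egr1 and Junb, against 7.74% of genes.

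Ier2 was at 97.9, 135, 121 and 73.3 CPM in the 4 NCTD_IT tumors and at 76.2, 53.7, 61.7 and 48.9 CPM in the 4 CONTROL_IT tumors. The lowest NCTD_IT tumor lay below the highest control, and the other 3 lay above all controls. The group means were 107 ± 27.2 (SD, n = 4) and 60.1 ± 11.9 CPM (SD, n = 4). The log2 fold change was 0.83 (SE 0.20, 95% interval 0.42 to 1.25, edgeR adjusted p = 0.0487). PTX_IT, at 64.7 to 74.1 CPM, and MIX_IT, at 67.9 to 90.4 CPM, lay between these means. When each of the 8 tumors was left out in turn, the log2 fold change of Ier2 ranged from 0.70 to 0.98 and the adjusted p from 0.0297 to 0.157, and the call held in 1 of the 8 fits, that without NCTD_IT replicate 20.

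Egr1 showed the largest of the changes that passed the unadjusted threshold. It was at 23.3, 35.8, 12.4 and 29.3 CPM in NCTD_IT and at 3.35, 10.3, 8.06 and 4.24 CPM in CONTROL_IT. The groups did not overlap, although the lowest treated tumor and the highest control were close. The means were 25.2 ± 9.94 and 6.49 ± 3.26 CPM (SD, n = 4 each), with a log2 fold change of 1.94 (SE 0.48, 95% interval 0.93 to 2.95, edgeR adjusted p = 0.0542). In MIX_IT Egr1 was at 7.71, 14.0, 12.9 and 22.2 CPM, which overlaps the controls in 1 tumor. Its log2 fold change there was 1.11 (SE 0.47, unadjusted p = 0.0316, edgeR adjusted p = 0.331). In PTX_IT the values were 6.97, 19.3 and 4.88 CPM, and 2 of the 3 tumors lay within the control range.

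Dusp1, the MAP kinase phosphatase, was at 45.4, 180, 32.5 and 84.8 CPM in NCTD_IT and at 19.6, 39.9, 18.9 and 26.9 CPM in CONTROL_IT. The NCTD_IT tumors spread more widely than the controls, and the lowest of them lay under the highest control. The means were 85.6 ± 66.6 and 26.3 ± 9.74 CPM (SD, n = 4 each), with a log2 fold change of 1.69 (SE 0.42, edgeR adjusted p = 0.0542). Without replicate 18, the tumor at 180 CPM, it was 1.04 (edgeR adjusted p = 0.153). PTX_IT held Dusp1 at 53.8, 63.5 and 35.4 CPM, with 2 of 3 tumors above all controls, and a log2 fold change of 0.94 (SE 0.44, unadjusted p = 0.0489, edgeR adjusted p = 0.786). In MIX_IT Dusp1 was at 28.5 to 42.2 CPM.

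Among the AP-1 subunits, Junb separated NCTD_IT from CONTROL_IT most clearly. It was at 60.7, 170, 70.9 and 78.4 CPM in NCTD_IT and at 24.7, 57.6, 39.3 and 32.3 CPM in CONTROL_IT, without overlap. The log2 fold change was 1.30 (SE 0.36, edgeR adjusted p = 0.0618), and 0.86 without replicate 18. Its partner Fos was at 23.1, 72.0, 22.5 and 32.0 CPM against 15.7, 26.3, 21.4 and 23.5 CPM in the controls, with 2 of 4 tumors inside the control range and a log2 fold change of 0.78 (SE 0.40, unadjusted p = 0.0676). Jun, with 0.54 (SE 0.28, unadjusted p = 0.0764), and Fosb, with 2.31 (SE 1.20, unadjusted p = 0.0723), were also estimated higher and did not pass. For Fosb the 4 CONTROL_IT tumors held 0, 8, 5 and 2 counts and the NCTD_IT tumors 8, 19, 3 and 40, which leaves its interval wide, from -0.23 to 4.84.

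The remaining genes were not estimated higher in NCTD_IT. Atf3 was at 7.95 to 30.0 CPM in NCTD_IT and 14.7 to 28.3 in CONTROL_IT. Nr4a1 was at 92.0 to 121 CPM against 90.5 to 137. Ier3 was at 51.5, 52.3 and 53.2 CPM in 3 NCTD_IT tumors and at 127 CPM in replicate 18, with the controls at 75.8 to 103 CPM in between. The unadjusted p-values of the 3 genes lay between 0.339 and 0.895.

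**Figure D2:**
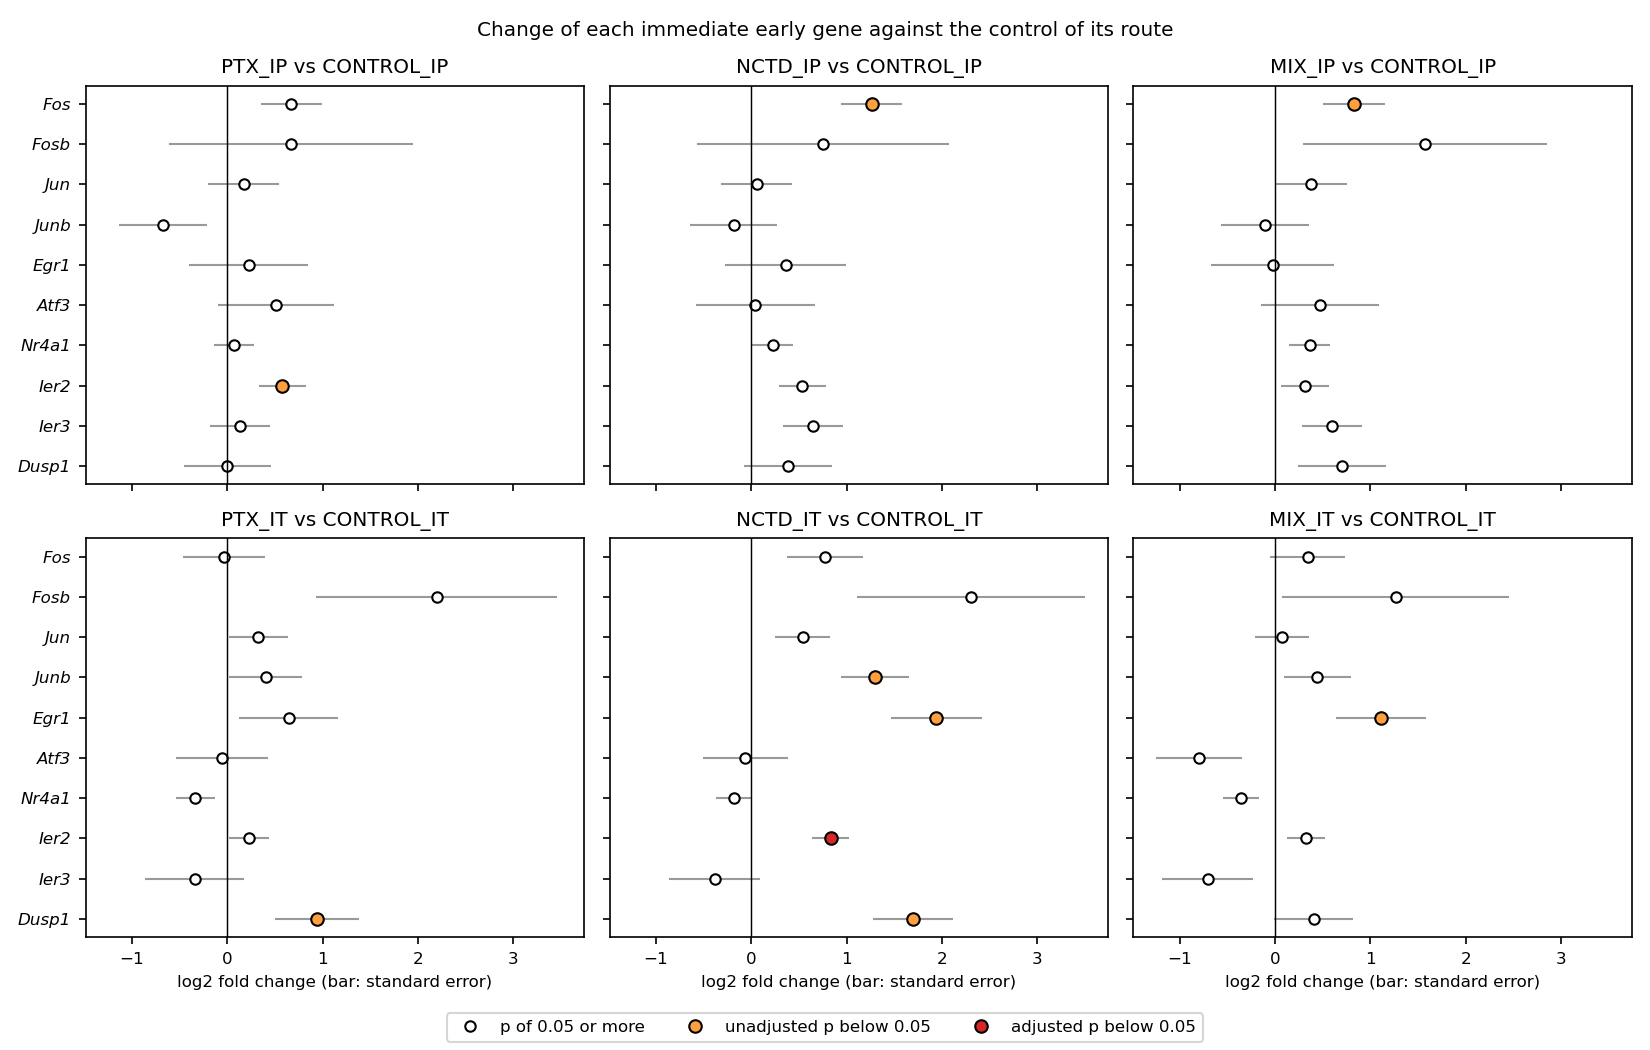
Log2 fold change of each gene (x axis, with its standard error as a bar) for each treatment against the control of its route in edgeR's model, with fill marking the p-value. Ier2 in NCTD_IT, at 0.83, is the point past the adjusted threshold, and Egr1, Dusp1 and Junb in NCTD_IT lie further from 0.

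One NCTD_IT tumor weighed on these values. Replicate 18 lay above its group mean for 10 of the 10 genes and was the highest of its group for 7. Its neutrophil markers (6 genes such as S100a8 and S100a9) summed to 1093 CPM, where the other NCTD_IT tumors had 17.9 to 46.3 CPM and CONTROL_IT 2.26 to 8.76. Without it, 0 of the 10 genes were called in edgeR's adjusted test, and Egr1 stood at a log2 fold change of 1.73 and Ier2 at 0.70. The loss of the call was not particular to this tumor. There were also 0 calls without NCTD_IT replicate 17 or without CONTROL_IT replicate 9, 11 or 12. Egr1 likewise stood at 1.73 without CONTROL_IT replicate 9. Summed markers of other cells differed too. Macrophage markers (7 genes) summed to 343 to 1192 CPM against 83.2 to 566 in CONTROL_IT, fibroblast markers (6 genes) to 377 to 1656 against 106 to 361, and endothelial markers (5 genes) to 61.2 to 125 against 31.7 to 56.0. At an unadjusted p below 0.05, 3 of 3 tested neutrophil markers, 3 of 7 macrophage, 4 of 5 fibroblast and 3 of 4 endothelial markers were higher in NCTD_IT. So were 1 of 6 T and NK cell markers and 0 of 2 of skeletal muscle, against 11.6% of all genes. At that threshold 2 of 7 melanocyte and 3 of 4 erythroid markers were lower, where 21.6% of all genes passed in either direction. Erythroid sums were 258 to 1360 CPM against 1238 to 6944. After adjustment 2 of 3 neutrophil markers and 1 of 7 melanocyte markers were called, against 1.37% of all genes. The part of these cells in the changes of the 10 genes was not tested. With Xist (log2 CPM) added to the model as a covariate, 0 of the 10 were called. The estimate of Ier2 was then 1.19 (unadjusted p = 0.0168, edgeR adjusted p = 0.832) and that of Junb 0.58 (edgeR unadjusted p = 0.484). Those of Egr1 and Dusp1 were -0.18 and -0.51, with edgeR unadjusted p-values of 0.862 and 0.527, so their sign is not settled. Xist also varied within groups, from 5.19 to 13.6 CPM in NCTD_IT and from 1.28 to 11.6 in PTX_IT. The covariate is therefore an RNA level and not a label of sex alone, and what else it follows was not tested. Since Xist separates NCTD_IT from CONTROL_IT almost as the treatment does, sex and treatment cannot be told apart in this comparison.

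The NCTD_IT and PTX_IT groups, both with Xist, can be set against each other. In edgeR's test 0 of the 10 genes had an adjusted p below 0.05, against 0% of all genes, and 3 had an unadjusted p below 0.05, all higher in NCTD_IT, against 3.87%. DESeq2 called 0 of 10, against 0.00851% of genes. The log2 difference was 0.60 for Ier2 (SE 0.21, unadjusted p = 0.0121), 1.30 for Egr1 (SE 0.52, unadjusted p = 0.0224) and 0.90 for Junb (SE 0.39, unadjusted p = 0.034). For each of these the edgeR adjusted p was 0.999. Junb fell to 0.46 (unadjusted p = 0.196) without NCTD_IT replicate 18, and Egr1 was at 2.09 without PTX_IT replicate 15. Of the other AP-1 subunits, Fos was at 0.81 (SE 0.44), Jun at 0.21 (SE 0.31) and Fosb at 0.11 (SE 1.18). For Junb the 3 PTX_IT tumors, at 46.5, 56.4 and 50.3 CPM, all lay below the 4 NCTD_IT tumors. How many of all genes do so was not counted. For Ier2 the PTX_IT values of 64.7, 74.1 and 72.7 CPM overlapped with 1 NCTD_IT tumor, at 73.3 CPM.

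In MIX_IT, which received both drugs, the 10 genes were estimated lower than in NCTD_IT. Of the 10, 0 of the 10 genes had a higher estimate in MIX_IT and 10 a lower one, with a median of -0.62 on the log2 scale where all genes had 0.0046. None had an adjusted p below 0.05 in edgeR (0 of 10, against 0.00801% of genes) or DESeq2 (0 of 10, against 0.0822%), and 3 had an unadjusted p below 0.05, against 6.02%. These were Dusp1 at -1.29 (SE 0.41, unadjusted p = 0.00616), Ier2 at -0.51 (SE 0.19, unadjusted p = 0.019) and Junb at -0.85 (SE 0.35, unadjusted p = 0.027), each with an edgeR adjusted p of 0.803. The other AP-1 subunits were at -0.43 (SE 0.39) for Fos, -0.46 (SE 0.28) for Jun and -1.04 (SE 1.10) for Fosb. Without NCTD_IT replicate 18 the differences were -0.63 for Dusp1, -0.38 for Ier2 and -0.41 for Junb, with unadjusted p-values between 0.0685 and 0.205. Neutrophil markers summed to 14.0 to 22.6 CPM in MIX_IT, and the groups also differ in Xist. Between MIX_IT and PTX_IT, 0 of the 10 genes passed in edgeR with adjustment (0% of genes), without it (3.75%) or in DESeq2 (0.0431%).

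The PTX_IT and MIX_IT comparisons with the shared CONTROL_IT tumors called none of the 10 after adjustment. For PTX_IT the adjusted calls were 0 of 10 in edgeR, against 0% of genes, and 0 of 10 in DESeq2, against 0.0811%, and 1 of 10, Dusp1, had an unadjusted p below 0.05, against 6.35%. For MIX_IT they were 0 of 10 in edgeR, against 0%, and 0 of the 9 genes with an adjusted p in DESeq2, against 2.12%. There, 1 of 10, Egr1, had an unadjusted p below 0.05, against 13%. The median log2 fold change of the 10 was 0.28 in PTX_IT and 0.33 in MIX_IT, with all genes at 0.02 and 0.01. An F test for any difference among the 4 IT groups gave 0 of 10 after adjustment, against 0.024% of genes, and 4 of 10 at an unadjusted p below 0.05, against 12.9%. Those 4 were Ier2, Dusp1, Egr1 and Junb, with unadjusted p-values between 0.0039 and 0.0115 (edgeR).

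In the tumors of mice treated intraperitoneally, with 2 tumors per group, Fos had the smallest edgeR p of the 10 genes in NCTD_IP and MIX_IP. It was at 18.1 and 12.0 CPM in CONTROL_IP, 25.2 and 22.5 in PTX_IP, 29.4 and 42.3 in NCTD_IP, and 20.1 and 32.8 in MIX_IP. Each treated tumor lay above both controls, but with 2 tumors per group the share of all genes in this order was not counted. The 2 CONTROL_IP tumors also differed in Xist, at 0 and 8.26 CPM, while the treated IP tumors were at 0. The part of sex in the IP comparisons was not tested. The log2 fold change was 1.26 in NCTD_IP (SE 0.32, unadjusted p = 0.0033) and 0.83 in MIX_IP (SE 0.32, unadjusted p = 0.0302), with an edgeR adjusted p of 0.999 in both. Without MIX_IP replicate 8 the value in MIX_IP was 0.45. In DESeq2 on all MIX_IP and CONTROL_IP tumors, Dusp1 (unadjusted p = 0.016) and Ier3 (0.0468) came before Fos (0.0573). With all 23 tumors in a model, the edgeR unadjusted p of Fos in MIX_IP was 0.137. The other AP-1 subunits did not pass the unadjusted threshold. In NCTD_IP they were at 0.75 (SE 1.32) for Fosb, 0.06 (SE 0.38) for Jun and -0.18 (SE 0.46) for Junb. In MIX_IP they were at 1.57 (SE 1.28), 0.38 (SE 0.38) and -0.11 (SE 0.46).

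Ier2 in PTX_IP, at 56.9 and 62.2 CPM against 30.7 and 49.0 in CONTROL_IP, had a log2 fold change of 0.58 (SE 0.25, unadjusted p = 0.0438, edgeR adjusted p = 0.906). It was 0.28 (unadjusted p = 0.311) without CONTROL_IP replicate 1 and 0.95 without CONTROL_IP replicate 2. The treated tumors lay above both controls, which differed from each other by more than the treated pair did. Here too the share of all genes in this order was not counted. Egr1, which separated NCTD_IT from CONTROL_IT, was at 5.24 and 11.9 CPM in CONTROL_IP and 8.68 and 13.4 CPM in NCTD_IP, with overlap. Dusp1 was at 42.5 and 34.9 CPM in CONTROL_IP and at 28.8 and 71.4 CPM in NCTD_IP, so that the controls lay between the treated tumors.

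Few of the 10 genes passed a threshold by the IP route. The edgeR adjusted test called 0 of 10 in NCTD_IP (background 0%), 0 of 10 in PTX_IP (background 0%) and 0 of 10 in MIX_IP (background 0%). The unadjusted threshold was passed by 1 of 10 in each, against a background of 3.59% in NCTD_IP, 5.3% in PTX_IP and 2.94% in MIX_IP. DESeq2 gave 0 of 10 in each, against 0.0419%, 0.0186% and 0.0522%. The F test among the 4 IP groups gave 0 of 10 after adjustment (0% of genes) and 1 of 10, Fos, before it (3.27%). The 10 genes had median log2 fold changes of 0.37 in NCTD_IP, 0.20 in PTX_IP and 0.43 in MIX_IP, with all genes between -0.0091 and 0.011.

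Between the routes, the group mean of Ier2 was higher in IT than in IP tumors under each treatment. Its group means by the IP route ran from 39.8 ± 12.9 CPM in CONTROL_IP to 59.6 ± 3.78 in PTX_IP (SD, n = 2 each), and by the IT route from 60.1 ± 11.9 in CONTROL_IT (SD, n = 4) to 107 ± 27.2 in NCTD_IT (SD, n = 4). The neighbours in this order, CONTROL_IT and PTX_IP, differ by less than their SD. The mean log2 difference over the 4 treatments was 0.58 (SE 0.12, edgeR adjusted p = 0.0302). Sex-linked RNA was not balanced between the routes. Xist was at 0 in NCTD_IP and PTX_IP, but between 5.19 and 13.6 CPM in NCTD_IT and between 1.28 and 11.6 in PTX_IT. In these groups sex and route cannot be told apart. Ier2 was the 1 gene of 10 called in edgeR after adjustment, against 0.739% of 13395 genes, and the 1 of 10 at an unadjusted p below 0.05, against 14.4%. DESeq2 called 1 of the 8 genes to which it gave an adjusted p, against 5.37%. With each tumor left out in turn the log2 difference stayed between 0.50 and 0.67, and the adjusted p ranged from 0.0167 to 0.121, above 0.05 without CONTROL_IP 1, PTX_IP 3 or 4, NCTD_IP 5 or 6, MIX_IP 7 or 8, or PTX_IT 15. The other 9 genes were between -0.48 (Ier3, SE 0.27) and 0.40 (Egr1, SE 0.31).

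Whether a drug changed these genes differently by the 2 routes was tested directly. For NCTD and PTX the treated tumors of the 2 routes also differ in Xist, so sex and route cannot be told apart there. The CONTROL_IP tumors, which enter all of these differences including that of MIX, were mixed in Xist, at 0 and 8.26 CPM. For NCTD, 0 of 10 passed after adjustment (0% of genes) and 1 of 10 before it (10.8%), and DESeq2 called 0 of the 6 genes to which it gave an adjusted p (1.59%). That gene was Junb, whose change by the IT route exceeded that by the IP route by 1.49 on the log2 scale (SE 0.65, unadjusted p = 0.0329, edgeR adjusted p = 0.43). Fos stood at -0.48 (SE 0.64), Jun at 0.49 (SE 0.52) and Fosb at 1.55 (SE 2.06). For PTX, 0 of 10 passed with adjustment (0%) or without it (5.23%), and 0 of 10 in DESeq2 (0.00344%). For MIX, 0 of 10 passed after adjustment (0%), 1 of 10 before it (7.44%) and 0 of 6 in DESeq2 (0.113%). That gene was Nr4a1, at -0.71 (SE 0.31, unadjusted p = 0.0316, edgeR adjusted p = 0.631), with 129 ± 4.84 CPM in MIX_IP (SD, n = 2) against 101 ± 12.6 in CONTROL_IP (SD, n = 2), and 93.9 ± 15.6 in MIX_IT (SD, n = 4) against 120 ± 20.6 in CONTROL_IT (SD, n = 4).

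Genes of the same pathways, in lists drawn up by hand, give the surroundings of the 10. Other immediate early genes formed the list with the highest median in NCTD_IT. Of 28 tested, 27 were estimated higher than in CONTROL_IT, 11 had an unadjusted p below 0.05 and a higher level (11.6% of all genes), 0 a lower one, and the median log2 fold change was 0.83. Rhob, a small GTPase induced by growth factors and stress, rose by 1.24 (SE 0.30, edgeR adjusted p = 0.0498), from 36.5 to 51.5 CPM in CONTROL_IT to 77.7 to 136 CPM in NCTD_IT. Trib1, a pseudokinase, was at 1.21 (SE 0.29, edgeR adjusted p = 0.053). In PTX_IT 23 of the 28 were estimated higher with a median of 0.29, 3 of them at an unadjusted p below 0.05 (6.35% of all genes). In MIX_IT 19 of the 28 were, with a median of 0.21, and 5 were higher and 1 lower at that threshold (13% of all genes).

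The upstream and parallel branches had medians nearer to that of all genes, from -0.015 for the genes that report ERK activity to 0.32 for the cyclic AMP response genes. Among 23 kinases and transcription factors upstream of the immediate early genes, 3 were higher and 2 lower at an unadjusted p below 0.05 in NCTD_IT, where 21.6% of all genes passed it in either direction, as for the lists that follow. Elk4, a partner of the serum response factor, rose by 0.96 (SE 0.18, edgeR adjusted p = 0.028), with CONTROL_IT at 42.7 to 55.9 CPM and NCTD_IT at 88.5 to 116 CPM. Of 12 other AP-1 subunits 2 were higher and 0 lower, and of 10 other MAP kinase phosphatases 1 was higher and 1 lower. Of 9 genes that report ERK activity 1 was higher and 0 lower, and of 6 cyclic AMP response genes 1 was higher and 0 lower. By estimate alone, 4 of the 9 ERK genes and 6 of the 6 cyclic AMP response genes were higher than in CONTROL_IT. The 10 heat shock genes went the other way in their estimates, with 1 of 10 estimated higher, 1 lower at an unadjusted p below 0.05, and a median of -0.39.

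In PTX_IT and MIX_IT no gene of these lists passed the adjusted test. The listed genes with the smallest p in PTX_IT were Rhob at 1.25 (SE 0.32, unadjusted p = 0.00104), Elk4 at 0.69 (SE 0.19, unadjusted p = 0.00217) and Klf2, a transcription factor prominent in endothelium and T cells, at 1.42 (SE 0.52, unadjusted p = 0.0142). In MIX_IT the genes named were Rhob at 1.12 (SE 0.30, unadjusted p = 0.00158) and Nr4a3, a relative of Nr4a1, at -0.69 (SE 0.20, unadjusted p = 0.00352). By the IP route, the other immediate early genes had medians of -0.15 in NCTD_IP, 0.13 in PTX_IP and 0.05 in MIX_IP, with 12, 14 and 15 of 27 estimated higher. At an unadjusted p below 0.05 there were 2, 3 and 1 of them, each higher, against 3.59%, 5.3% and 2.94% of all genes in either direction.

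**Figure D3:**
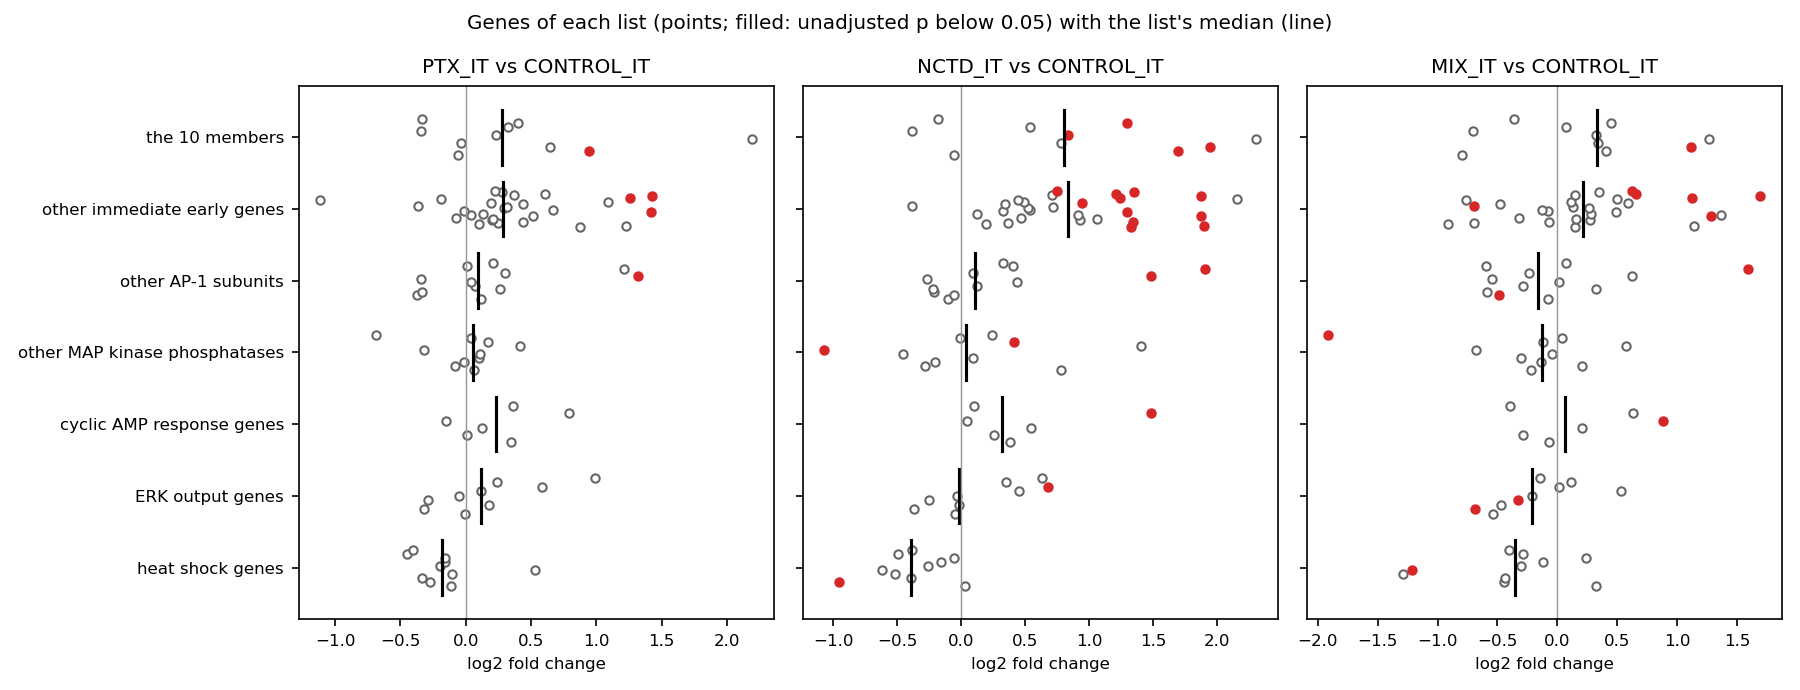
Log2 fold change (x axis) of the genes of each list (rows) for PTX_IT, NCTD_IT and MIX_IT against CONTROL_IT, with a line at the list's median and filled points for an unadjusted p below 0.05. The other immediate early genes of NCTD_IT lie to the right, with a median of 0.83, and the heat shock genes to the left, with a median of -0.39.

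From tumor to tumor within groups, most of the 10 genes varied together. With the group mean subtracted from log2 CPM, 36 of the 45 pairs had a Pearson r above 0 over the 23 tumors, with a median of 0.26, and 19 had an r of at least 0.5. The share of all gene pairs with such r values was not counted, so these counts are not read as a trait of the 10. Atf3, Jun, Junb, Egr1, Fosb and Dusp1 formed the block with the highest values, from 0.49 (Fosb and Dusp1) to 0.84 (Atf3 and Jun). Fos joined Junb, Atf3, Dusp1 and Jun but was at 0.26 with Egr1 and 0.19 with Fosb. Ier3 and Nr4a1 formed a pair of their own, at 0.76, and Nr4a1 ran against Egr1, at -0.40. Ier2, the gene called after adjustment in NCTD_IT against CONTROL_IT and between the routes, had a median r of 0.04 with the other 9. The 10 genes of a tumor are read from the same library and share its depth, and these r values are a description without a test.

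**Figure D4:**
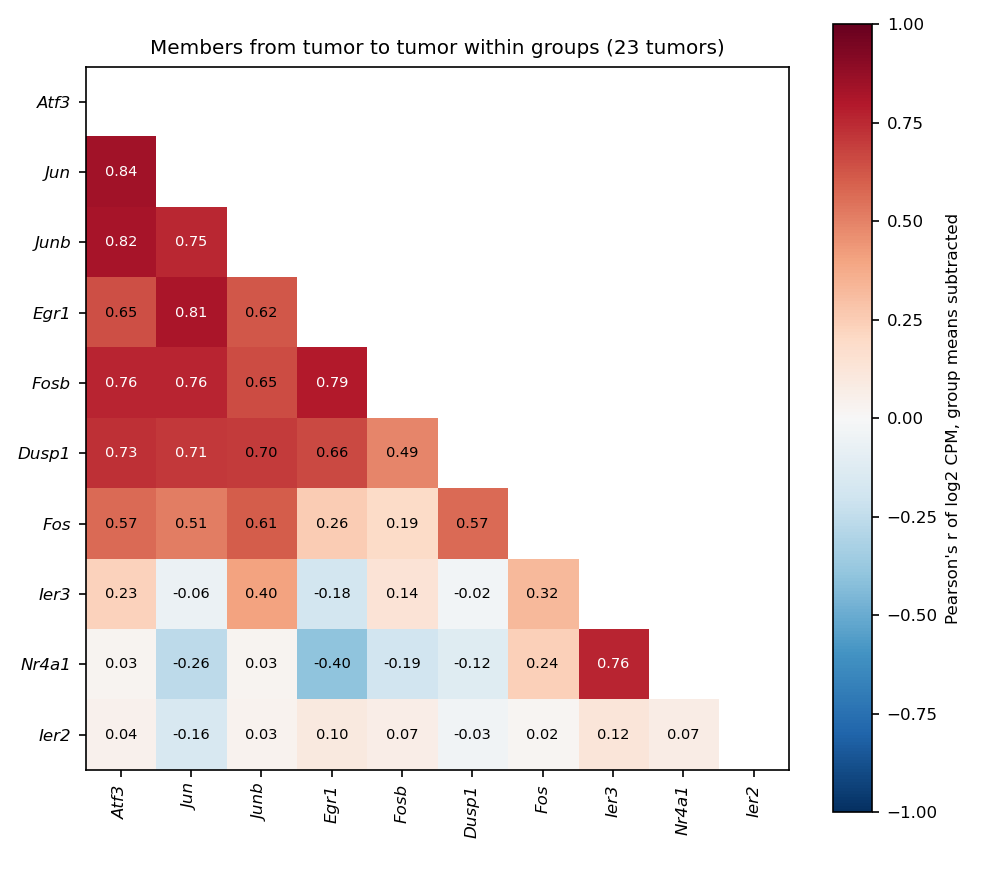
Pearson r between the log2 CPM of each pair of genes over 23 tumors after subtraction of the group means (colour and number). Atf3, Jun, Junb, Egr1, Fosb and Dusp1 form a block of high values, Ier3 and Nr4a1 a separate pair at 0.76, and the row of Ier2 stays between -0.16 and 0.12.

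Fos was tested against each of the other 9 genes by permutation within groups (two-sided, 100000 draws, Benjamini-Hochberg over 9). With Junb, r was 0.61 and rho 0.54 (permutation test, adjusted p = 0.0402 for r and 0.0551 for rho). Within the 8 IP tumors this r was 0.49, and within the 15 IT tumors 0.67. The 2 tumors of an IP group are mirror images once the group mean is subtracted. The 8 IP tumors therefore carry fewer independent values than tumors. With Atf3, r was 0.57 and rho 0.53, with Dusp1 0.57 and 0.49, and with Jun 0.51 and 0.59, and the adjusted permutation p of r lay between 0.0557 and 0.0623. Without NCTD_IT replicate 18 and CONTROL_IP replicate 2, the tumors farthest from the median of Fos, r was 0.42 for Junb, 0.49 for Atf3, 0.31 for Dusp1 and 0.55 for Jun. For the other 5 genes r lay between 0.02 (Ier2) and 0.32 (Ier3).

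The mean of the 10 standardized profiles was closest, among 12049 other genes tested in both routes, to Tgif1, a transcriptional repressor of the TGF-beta pathway (r = 0.87, rho = 0.86, 23 tumors). Next came Ndrg2 (r = 0.86), Atf5, a stress-response transcription factor (r = 0.85), Ndrg1, a gene induced by low oxygen (r = 0.85), and Mmp12, the macrophage elastase (r = 0.84). This ranking chose the genes by their r, which is therefore a description. The mean itself followed the 10 genes unevenly. Its r was 0.90 with Atf3 and with Junb, but 0.43 with Ier3, 0.20 with Ier2 and 0.18 with Nr4a1, although each is part of it. Set beside the same mean, the summed macrophage markers had an r of 0.43 and a rho of 0.55. Their r was 0.96 among the 8 IP tumors and 0.31 among the 15 IT tumors. In an IP group of 2 tumors, subtracting the group mean leaves mirror images. The 8 IP tumors therefore carry fewer independent values than tumors, here and for the lists that follow. The neutrophil sum had an r of 0.52 and a rho of 0.39, and an r of 0.03 without the 2 tumors farthest from its median. With the 2 tumors farthest from each list's own median left out, macrophage markers were at 0.65 and T and NK cell markers at 0.58. Skeletal muscle was then at 0.32, melanocyte at 0.19, erythroid at 0.08, fibroblast at -0.01 and endothelial at -0.22. The values that follow are again for all tumors. T and NK cell markers were at r = 0.45 (0.87 in IP and 0.36 in IT tumors), skeletal muscle at 0.53 (0.80 and 0.45), melanocyte at 0.16 (0.64 and 0.08) and fibroblast at -0.13 (0.66 and -0.30). Erythroid markers were at 0.18 (-0.23 and 0.29) and endothelial markers at -0.13 (0.37 and -0.21). Over these 8 lists the smallest adjusted p was 0.152 (permutation test within groups, two-sided, for the rho of macrophages).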

How the data were processed

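Libraries of 23 tumors read messenger RNA at its 3′ end, and counts do not scale with gene length. The authors trimmed reads with Trimmomatic, aligned them to GRCm39 with STAR 2.7.11b and deposited raw counts of reads per gene, without normalization. The strand setting, the treatment of reads with several alignments and the use of molecular identifiers are not given in the sources used here, so overlapping or antisense genes can share reads. Groups came from the labels. Replicate numbers are unique to each tumor and pair none. That tumors came from separate mice was taken from the study's description. Within groups, all 25 possible pairs of tumors were further apart than counting noise (chi-square per degree of freedom 8.09 to 64.6).

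The main test was that of edgeR 4.0.16 in R 4.3.3 (quasi-likelihood F test, TMM, filterByExpr with a minimum count of 10 and total of 15, Benjamini-Hochberg over all genes tested), with the 4 groups of a route in a model, or all 23 tumors for comparisons between routes. All tests were two-sided. CPM uses TMM library sizes, and log2 CPM a prior count of 2. The SE is the absolute log2 fold change divided by the square root of the F statistic of its test. The 95% intervals are built from this SE and a t quantile. The study's methods name DESeq2, and DESeq2 1.42.0 was run as an alternative. The others were DESeq2's size factors, no filter, the groups compared alone, all tumors in a model, Xist as a covariate, and leaving out each tumor. Scripts were tested on simulated counts.

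The 10 genes and all lists were chosen with earlier results of these data known. A fold change is printed for a gene with an unadjusted p below 0.05 in that comparison, and then for the other AP-1 subunits if it is one. Genes of the pathway lists are named if they pass the adjusted test, with the 3 smallest p for each IT comparison, and the 5 genes most like the mean of the 10. For MIX_IT, 1 of the 3 is not reported here. Values of other genes, for overlap or as ranges, and the marker sums set beside that mean were chosen after the data were seen. Promoter sequences are RefSeq's, placed on GRCm39 by an exact match.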

Additional observations from a re-analysis of the deposited data

Results flagged for a closer look

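Of the 30 sets of values tested (10 genes in the 3 groups of 4 tumors), 2 held a tumor that stood apart by Dixon's criterion. Chance gives about 1 such flag in 20 groups. Both were in NCTD_IT replicate 18. Junb was at 170 CPM there (170.045), with a gap of 0.84 of the group's range. Ier3 was at 127 CPM (126.873), with a gap of 0.98 of the range, while the other 3 tumors lay between 51.5 and 53.2 CPM. The same tumor held 1093 CPM of neutrophil markers, against 17.9 to 46.3 in the rest of its group, and the part of these cells in the values was not tested.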

How the results depend on the processing

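The number of the 10 genes called after adjustment in NCTD_IT vs. CONTROL_IT was 1 in edgeR. It was 4 with DESeq2, 4 without a filter on low counts, 3 with the compared groups alone, 4 with all 23 tumors in a model, and 0 with Xist as a covariate, and from 0 to 2 when each tumor was left out (0 without CONTROL_IT 9, 11 or 12, or NCTD_IT 17 or 18, and 2, Egr1 and Dusp1, without CONTROL_IT 10). Without a filter, 1 gene was called in NCTD_IP, 1 in PTX_IT, 1 in MIX_IT vs. NCTD_IT, 3 in the F test among the IT groups, 2 between the routes and 1 for the change under NCTD between routes. Leaving out each tumor gave 0 to 1 calls between the routes. With Xist as a covariate the log2 fold change of Ier2 in NCTD_IT was 1.19 and that of Junb 0.58. Those of Egr1 and Dusp1 were -0.18 and -0.51 (edgeR unadjusted p = 0.862 and 0.527). Dusp1 in PTX_IT was then at -0.80 (edgeR unadjusted p = 0.241). The median r of Fos with the other 9 genes was 0.0485 in the IP tumors alone, where its r was -0.47 with Fosb and -0.58 with Ier2, and -0.23 with Ier2 without the 2 tumors farthest from the median of Fos. The causes were not tested. No paired analysis was possible because no replicate number is shared between tumors. Depth limits Fosb most, at 0 to 40 counts a tumor. Each IP group holds 2 tumors, which are mirror images in the r values once the group mean is subtracted.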
